A study of Mus musculus with 24 samples.

Results

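The glycolysis genes described here are 10 mouse genes that act between the uptake of glucose and the formation of lactate: Slc2a1, Hk2, Gpi1, Pfkl, Aldoa, Gapdh, Pgk1, Eno1, Pkm and Ldha. They were listed by symbol, with earlier results of these data known. All 10 were found through their Ensembl identifiers among the 29759 genes of each deposited table. The libraries come from E14 mouse embryonic stem cells, grown in N2B27 medium throughout, in 2 states. Naive cells (nESC) were kept with the MEK inhibitor PD0325901, the GSK inhibitor CHIR99021 and LIF, and epiblast-like cells (EpiLC) were taken on day 3 of treatment with 20 ng/ml activin A and 12 ng/ml bFGF. Each state was sequenced, after depletion of ribosomal RNA, as chromatin, nucleoplasm, cytoplasm and total RNA of unfractionated cells, with 3 libraries in each of the 8 groups and 24 in all. Both states derive from the single E14 line, no genotype differs between the groups, and nothing in the labels makes the replicates separate cultures. The p-values therefore measure only the spread between these libraries, which may be technical.

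Glycolysis splits glucose into pyruvate in the cytosol, with a small gain of ATP and NADH, and lactate dehydrogenase turns pyruvate into lactate and restores NAD+. Most steps have several isozymes encoded by separate genes, which differ in kinetics and regulation. Naive mouse stem cells are known to combine glycolysis with mitochondrial respiration, and cells that leave the naive state for the primed state are known to lean more on glycolysis. Several of the genes are textbook targets of hypoxia-inducible factors and of MYC.

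Values are FPKM, read fragments scaled by transcript length and by library, so that levels of different genes can be compared. The FPKM sum of a library ran from 432706 to 1980223. The steps between low FPKM values imply that 1 FPKM over 2 kb of transcript stands for 24.2 to 93.6 fragments, fewest in cytoplasm and chromatin. For the library in which each gene rests on fewest fragments this gave about 2100 fragments for Slc2a1, a counting error of 2.2%, up to about 56000 for Gapdh, an error of 0.42%. These numbers use the merged length of all annotated exons of a gene, 4133 bases for Gapdh. Where the main transcript is shorter, the fragments are overstated and the error is understated. The state labels were checked against markers: in total RNA 8 of 8 naive markers tested were lower and 4 of 4 formative markers tested were higher in EpiLC by more than 2-fold. Nanog was at 277 ± 2.92 FPKM in nESC and 14.2 ± 0.688 FPKM in EpiLC, and Dnmt3b at 22.2 ± 0.144 and 778 ± 20.9 FPKM (SD, n = 3). Of the 6 primitive endoderm markers 0 reached the filter of a mean of 1 FPKM in nESC and 1 did in EpiLC, Sox17, at 2.36 FPKM in chromatin and 0.794 FPKM in total RNA. Of the 6 fibroblast markers only Vim did so in both states. In these bulk libraries fewer cells of a type and less RNA per cell cannot be told apart.

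The first question is how much of each RNA the states hold. The 2 tables were normalized separately, so the states are set side by side as levels, with no test. A gene counts as apart between the states when its mean differs by more than 2-fold and the 3 libraries of each state do not overlap. In total RNA 2 of the 10 genes were apart and higher in EpiLC, Slc2a1 and Ldha, and 1 was apart and lower, Hk2. The share of the 11704 genes tested in both states that were apart in total RNA was 23.7%, so a count of 3 in 10 is near the background. The median log2 ratio of EpiLC over nESC was 0.14 for the 10 genes and -0.01 for all genes. With every library scaled to one FPKM sum 3 were apart and higher, Pfkl being added at a log2 ratio of 1.15, and Hk2 was still the 1 lower.

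Slc2a1 and Hk2 went opposite ways. Slc2a1 encodes GLUT1, a glucose carrier of the plasma membrane. It lies at chr4:119108711-119137983 on the plus strand of GRCm38. Its total RNA was at 59.9, 59.5 and 59.4 FPKM in the nESC libraries and at 131, 143 and 133 FPKM in the EpiLC libraries. All 3 EpiLC libraries were above all 3 nESC libraries, and the means differed 2.26-fold. Hk2 encodes hexokinase 2, which phosphorylates glucose and binds mitochondria. It lies at chr6:82725025-82774454 on the minus strand. Its total RNA was at 82.9, 92.5 and 84.5 FPKM in nESC and at 32.9, 34.7 and 33.7 FPKM in EpiLC. The 2 ranges were far apart, and the mean was 2.54-fold lower in EpiLC. Among the 29759 genes ranked by mean total RNA, Slc2a1 moved from rank 1798 to 688 and Hk2 from 1271 to 2796.

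**Figure D1:**
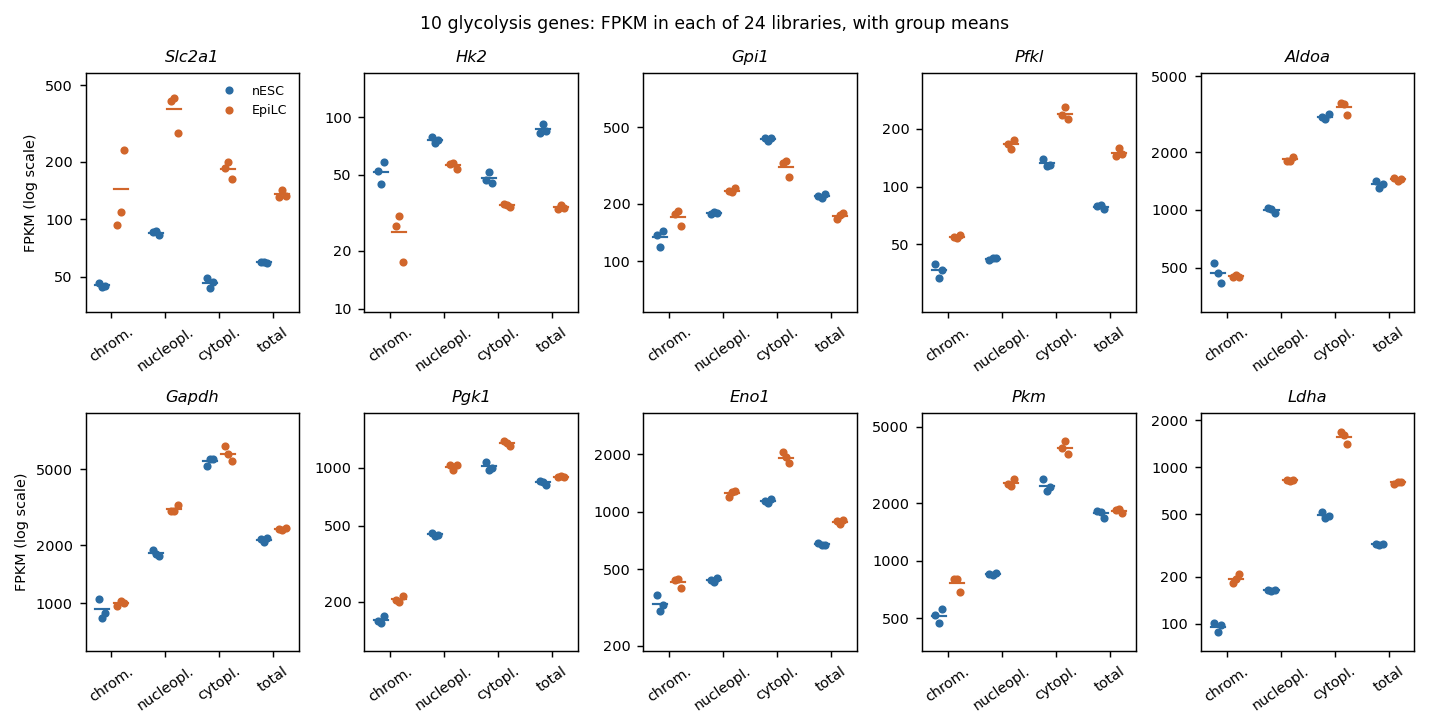
FPKM on a log scale of each glycolysis gene in chromatin, nucleoplasm, cytoplasm and total RNA; points are single libraries, blue for nESC and orange for EpiLC, and bars are the means of 3. Slc2a1 and Ldha sit higher and Hk2 sits lower in EpiLC in every kind of library, and Pfkl, Aldoa, Gapdh, Pgk1, Eno1 and Pkm are furthest apart between the states in nucleoplasm.

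The middle steps differed less in total RNA. Gpi1, which turns glucose 6-phosphate into fructose 6-phosphate (chr7:34201330-34230336, minus strand), was at 219 ± 5.08 FPKM in nESC and 173 ± 5.70 FPKM in EpiLC (SD, n = 3), a 1.26-fold lower mean with no overlap. Pfkl, the liver-type phosphofructokinase of the committed step (chr10:77986947-78010083, minus strand), was at 79.4, 79.8 and 76.6 FPKM in nESC and at 145, 158 and 147 FPKM in EpiLC. Its libraries did not overlap, and its 1.91-fold difference fell just short of 2-fold. Aldoa, the aldolase that splits fructose 1,6-bisphosphate (chr7:126795234-126800751, minus strand), was at 1361 ± 53.2 and 1445 ± 25.4 FPKM, a 1.06-fold difference. Gapdh, the dehydrogenase that yields NADH (chr6:125161715-125166467, minus strand), was at 2142 ± 57.1 and 2441 ± 16.7 FPKM, a 1.14-fold difference. Gapdh and Aldoa did not overlap between the states in spite of the small differences, as was the case for 82.1% of all genes.

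The payoff steps ranged from nearly equal to among the furthest apart. Pgk1, which makes the first ATP of the pathway (chrX:106187100-106203699, plus strand), was at 841 ± 19.6 and 898 ± 5.25 FPKM, a 1.07-fold difference. Eno1, the enolase that forms phosphoenolpyruvate (chr4:150236721-150248879, plus strand), was at 677 ± 11.8 and 888 ± 22.0 FPKM, a 1.31-fold difference. Pkm, the pyruvate kinase gene (chr9:59656368-59679375, plus strand), was at 1816, 1807 and 1678 FPKM in nESC and at 1840, 1869 and 1773 FPKM in EpiLC, and its ranges overlapped. Pkm was the only one of the 10 whose total RNA overlapped between the states. Ldha, the lactate dehydrogenase subunit that favours lactate (chr7:46841475-46855627, plus strand), was at 321, 320 and 326 FPKM in nESC and at 785, 809 and 807 FPKM in EpiLC, 2.48-fold higher with no overlap. The order of levels in nESC total RNA was Gapdh, Pkm, Aldoa, Pgk1, Eno1, Ldha, Gpi1, Hk2, Pfkl and Slc2a1, with no overlap of neighbours. In EpiLC it was Gapdh, Pkm, Aldoa, Pgk1, Eno1, Ldha, Gpi1, Pfkl, Slc2a1 and Hk2, where Pgk1 and Eno1 overlapped.

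The promoters of the 3 genes that were apart in total RNA are shown with the motif cores of the factors named above. They are RefSeq windows of GRCm38.p6, up to the base before the annotated start site, read 5′ to 3′ on the gene's strand. Capitals mark ACGTG and GCGTG, cores of the hypoxia response element, on either strand; CACGTG, the E-box bound by MYC and its relatives, holds ACGTG on both strands. The Slc2a1 window is chr4:119108495-119108710, from which 34 bases that GENCODE places in the first exon were left out; the Hk2 window is chr6:82774455-82774704; the Ldha window is chr7:46845554-46845803 and belongs to a start site inside the gene's span.
Slc2a1: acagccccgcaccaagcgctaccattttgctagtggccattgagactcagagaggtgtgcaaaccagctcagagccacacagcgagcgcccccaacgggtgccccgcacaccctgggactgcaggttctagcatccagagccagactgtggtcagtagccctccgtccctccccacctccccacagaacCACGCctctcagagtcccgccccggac
Hk2: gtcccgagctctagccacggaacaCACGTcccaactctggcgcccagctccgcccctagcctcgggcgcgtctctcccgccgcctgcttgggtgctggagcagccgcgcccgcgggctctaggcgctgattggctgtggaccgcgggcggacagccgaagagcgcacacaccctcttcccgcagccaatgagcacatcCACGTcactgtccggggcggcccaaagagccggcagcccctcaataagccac
Ldha: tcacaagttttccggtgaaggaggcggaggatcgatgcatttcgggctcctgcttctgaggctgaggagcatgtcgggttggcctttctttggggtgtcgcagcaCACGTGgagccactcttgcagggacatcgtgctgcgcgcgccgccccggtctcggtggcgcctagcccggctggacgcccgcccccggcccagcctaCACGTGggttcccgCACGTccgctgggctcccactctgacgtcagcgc
The Ldha window holds 3 separate marked runs, of which 2 are CACGTG, and the Hk2 window holds 2 runs. The Slc2a1 stretch shown holds 1. Its full window of 250 bases holds 2, the second being cut by the 34 bases left out. Of the 10 genes 9 had ACGTG or GCGTG in at least 1 of their windows of 250 bases, and Gpi1 had none, against 41.5% of 27025 genes. Their 16 windows had a GC content of 50.4% to 71.2%, with a median of 64.6%, against 52.4% for the median of all windows. Of the 16 windows 13 held a match, against 38.6% of 32851 windows. A gene with more windows can match more easily, and some windows of Aldoa and Eno1 overlap and hold the same match. Whether GC content or the number of windows bears on the matches was not tested. CACGTG was in 6.02% of all 32851 windows. A match is a description of these letters and not a site of binding. Hk2, with 2 runs, was lower in EpiLC. Slc2a1, with 2 runs in its full window, and Ldha, with 3 in the window shown, were higher.

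Fractions gave other ratios than total RNA. In nucleoplasm 6 of the 10 genes were more than 2-fold higher in EpiLC with no overlap and 0 were lower, against 20.5% of all genes either way and 10.9% higher. The median log2 ratio there was 1.34 for the 10 genes and 0.12 for all genes. Ldha was at 164, 161 and 165 FPKM in nESC nucleoplasm and at 828, 811 and 831 FPKM in EpiLC nucleoplasm, the furthest apart of the 10 at 5.02-fold. Slc2a1 was 4.39-fold, Pfkl 3.92-fold, Pkm 2.99-fold, Eno1 2.85-fold and Pgk1 2.26-fold higher in EpiLC nucleoplasm. Hk2 was the only one lower there, by 1.35-fold. Beside these values stands the mitochondrially encoded RNA of the nucleoplasm, whose 8 listed genes took 3.11% ± 0.266 of the FPKM sum in nESC and 4.84% ± 1.61 in EpiLC (SD, n = 3). Its part in the result was not tested.

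In cytoplasm 2 of the 10 genes were apart, Slc2a1 at 3.88-fold and Ldha at 3.18-fold higher in EpiLC, against 18.3% of all genes. In chromatin 3 were apart, Slc2a1 3.15-fold and Ldha 2.02-fold higher and Hk2 2.04-fold lower in EpiLC, against 14.9% of all genes. The chromatin count rests on EpiLC replicate 3. Slc2a1 was at 93.3, 109 and 229 FPKM in the EpiLC chromatin libraries, and without the third the log2 ratio went from 1.66 to 1.15. Without it the log2 ratio of Hk2 was -0.83 and that of Ldha was 0.96, so that only Slc2a1 stayed past 2-fold. With one sum per library 2 were apart and higher and 0 lower in chromatin, where Hk2 was at -0.97, and 3 were higher in cytoplasm; nucleoplasm had 6 as before. The same library held 21200 FPKM of mitochondrially encoded RNA, against 5845 and 3868 FPKM in the other two.

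**Figure D2:**
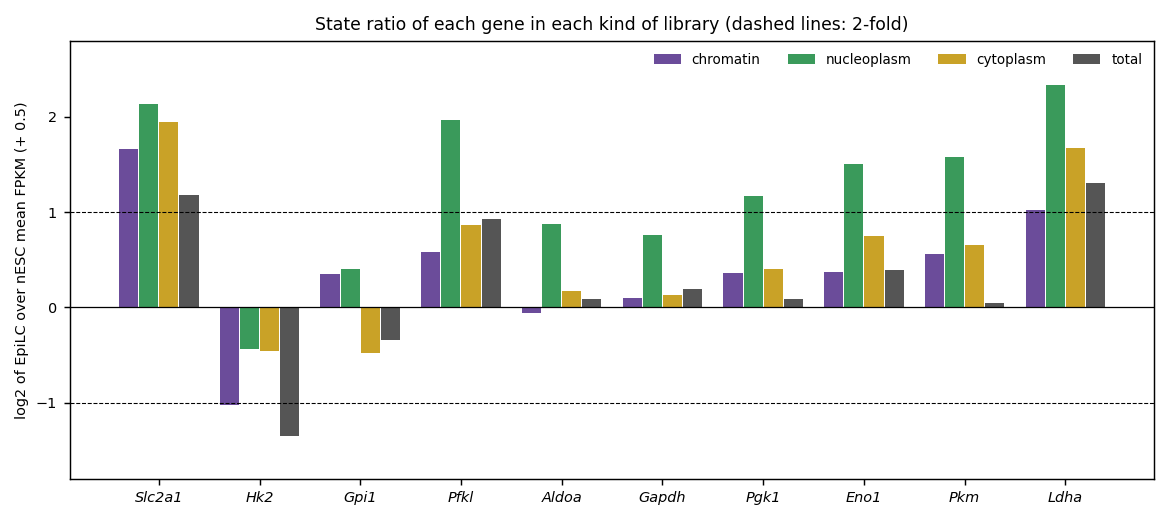
Log2 of mean FPKM in EpiLC over mean FPKM in nESC (each mean plus 0.5) for each glycolysis gene in the 4 kinds of library, with dashed lines at 2-fold; each bar compares 3 with 3 libraries. The nucleoplasm value is the highest of the 4 for all 10 genes, for Hk2 by little (-0.44 against -0.46 in cytoplasm), and Aldoa, Pgk1 and Pkm have long nucleoplasm bars beside total RNA bars near 0.

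Each library is scaled on its own, so a ratio in total RNA need not lie between those of the fractions. For 4 of the 10 genes (Slc2a1, Hk2, Pgk1 and Pkm) the log2 ratio in total RNA was below that of all 3 fractions. This was so for 32.2% of all genes, and 56.8% lay outside the fractions on either side. Together the 10 genes took 0.785% ± 0.00400 of the FPKM sum of total RNA in nESC and 1.07% ± 0.0180 in EpiLC. In nucleoplasm their share was 0.654% ± 0.0191 and 1.41% ± 0.0208, in cytoplasm 0.764% ± 0.0371 and 1.15% ± 0.0352, and in chromatin 0.578% ± 0.0426 and 0.747% ± 0.0676 (SD, n = 3 in each). With every library scaled to one sum, the median log2 ratio in total RNA became 0.36 for the 10 genes and 0.20 for all genes.

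For Slc2a1, Pfkl and Ldha a second gene of the same step went the other way between the states in total RNA. Shares within a step compare genes inside one library, so they do not depend on how the tables were scaled; the families were picked after their values were seen, and no test was made. Of the summed FPKM of Slc2a1 and Slc2a3 in total RNA, Slc2a1 held 9.90% ± 0.0463 in nESC and 75.2% ± 0.607 in EpiLC (SD, n = 3). Slc2a3, which encodes the high-affinity carrier GLUT3, was at 543 ± 3.22 FPKM in nESC and 44.7 ± 3.32 FPKM in EpiLC. The sum of both carriers was thus lower in EpiLC, at 180 ± 9.70 FPKM against 602 ± 3.38 FPKM, although Slc2a1 was higher.

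Among the phosphofructokinase genes Pfkl held 24.1%, 25.2% and 24.9% of the summed FPKM in the nESC total RNA libraries and 71.2%, 73.0% and 73.3% in the EpiLC libraries. Pfkp, the platelet-type enzyme, held 69.0% ± 0.917 and 16.7% ± 0.716, and the muscle-type Pfkm 6.28% ± 0.374 and 10.8% ± 0.519. Here too the sum was lower in EpiLC total RNA, at 207 FPKM against 318 FPKM. In cytoplasm the sum was close, 352.1 FPKM in nESC and 349.5 FPKM in EpiLC, as it was in nucleoplasm at 301.8 and 292.8 FPKM. Ldha held 29.9%, 30.7% and 30.4% of lactate dehydrogenase FPKM in nESC and 80.7% ± 0.659 in EpiLC (SD, n = 3). Ldhb, the subunit that favours pyruvate, held most of the rest, at 69.1% ± 0.362 in nESC, and was at 735 ± 14.7 FPKM there and 188 ± 5.84 FPKM in EpiLC. The summed level was close in total RNA, 1063 FPKM in nESC and 992 FPKM in EpiLC. It was higher in EpiLC in cytoplasm, at 1656 FPKM in nESC and 2109 FPKM in EpiLC, and in nucleoplasm, at 807.8 and 1143 FPKM. For the shares of Slc2a1, Pfkl and Ldha in total RNA no library of one state came near the range of the other.

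In cytoplasm the shares differed in a similar way, with Slc2a1 at 9.86% and 73.9%, Pfkl at 37.7% and 68.9%, and Ldha at 29.8% and 74.2% in nESC and EpiLC. In chromatin they did not all do so. Pfkl held 7.08% ± 1.04 there in nESC and 28.5% ± 6.03 in EpiLC, so that Pfkp still held most, 65.0% ± 6.72. Ldha held 55.3% ± 2.37 of the chromatin FPKM of its family already in nESC and 73.2% ± 2.02 in EpiLC, with Ldhb at a log2 ratio of -0.11, and Slc2a1 held 10.1% and 67.8%. Of the monocarboxylate carriers that move lactate, Slc16a3 (MCT4) held 39.3% ± 0.484 of the summed FPKM of Slc16a1 and Slc16a3 in nESC total RNA and 79.6% ± 0.751 in EpiLC. Slc16a1 did not go the other way, at 58.3 ± 1.54 and 57.3 ± 1.70 FPKM in total RNA. Hk2 held 76.9% ± 1.51 of the hexokinase FPKM in nESC total RNA and 79.6% ± 0.85 in EpiLC. In cytoplasm it held 49.0% ± 1.89 and 62.4% ± 1.79, with no overlap. Hk1 was lower as well in total RNA, and the family sum there was 113 FPKM against 42.4 FPKM. Aldoa held 99.0% of aldolase FPKM in nESC and 99.3% in EpiLC, and Eno1 held 68.0% and 68.1% of enolase FPKM. Most of the other enolase FPKM was that of Eno1b, a near-identical copy with which Eno1 could share fragments.

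**Figure D3:**
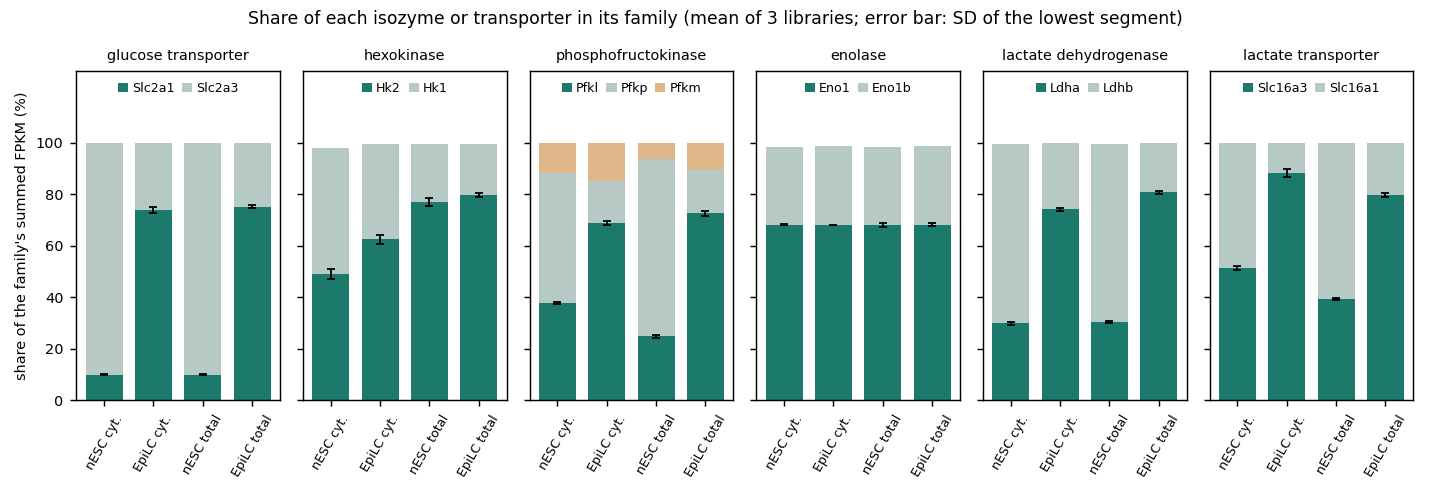
Share of each gene in the summed FPKM of its family, in percent, in cytoplasm and total RNA of both states; bars are means of 3 libraries and error bars the SD of the lowest segment. The dark segment goes from a minority to a majority between nESC and EpiLC for Slc2a1, Pfkl and Ldha, and stays at 68.0% to 68.1% for Eno1 in total RNA. Eno1b is a near-identical copy of Eno1, and the counting could split fragments between them.

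Some of these RNAs have near-identical copies, between which the authors' counting could split fragments. The longest coding transcript of Eno1 matched Eno1b at 99.5% identity over 1736 bases, and Eno1b was listed at 44.9% of the FPKM of Eno1 in nESC total RNA and at 45.1% in EpiLC. Pgk1 matched Pgk1-rs7 with no mismatch over 1255 bases, and that copy was listed at 75.1 ± 3.18 FPKM in nESC and 98.8 ± 3.15 FPKM in EpiLC. Gapdh had 73 similar genes in the annotation, of which 3 are in the tables, at 0.686% and 0.448% of its FPKM in all. The levels of Eno1 and Pgk1 are therefore uncertain, while Slc2a1, Hk2, Pfkl and Aldoa had 0 such copies. Exons of Slc2a1, Gpi1, Aldoa and Gapdh overlap a gene on the opposite strand by 105, 741, 25 and 68 bases. The kit keeps strand, and the use of strand in counting is not given in the sources used here.

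The second question is where in the cell each RNA lay. Within a state, fractions were compared with limma on log2(FPKM + 0.5), and a call needed a 2-fold difference and, after Benjamini-Hochberg adjustment over all genes tested, a p under 0.05. Such differences are relative: they say how a gene stands in one fraction's library against another's, not how many molecules a fraction holds. In nESC 8 of the 10 genes were called lower in chromatin than in cytoplasm and 0 higher, against 61.5% of 12592 genes called either way and 29.7% called lower. The median log2 difference was -2.05 for the 10 genes and 0.04 for all genes. With every library scaled to one FPKM sum these medians were -0.09 and 1.85, and Slc2a1, Gpi1, Pfkl and Eno1 turned positive. The distance to other genes was -2.09 as deposited and -1.94 with one sum. A factor common to a library nearly cancels in this distance, so that scaling cannot test it. After a correction for transcript length and GC content the distance was -1.74. The direction was shared by related lists described below. Of 14 other glycolysis genes 9 were called lower and 3 higher, with a median of -1.68 as deposited. Of 20 genes of the tricarboxylic acid cycle 12 were called lower and 0 higher, with a median of -1.11.

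Slc2a1 and Hk2 stood apart from the other 8 in this. In nESC Slc2a1 was at 46.7, 44.3 and 44.8 FPKM in chromatin and at 49.1, 44.0 and 46.9 FPKM in cytoplasm, overlapping ranges with a log2 difference of -0.04 (SE 0.06, limma adjusted p = 0.519). Hk2 was at 52.4, 44.9 and 57.9 FPKM in chromatin and at 46.8, 51.6 and 45.4 FPKM in cytoplasm, with a log2 difference of 0.10 (SE 0.09, limma adjusted p = 0.297). The other 8 lay between -1.71 for Gpi1 and -2.71 for Aldoa. Aldoa was at 526, 467 and 417 FPKM in chromatin against 3039, 2974 and 3171 FPKM in cytoplasm, with no overlap (SE 0.08, limma adjusted p = 4.68e-12).

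Nucleoplasm in nESC gave the same division. Here 8 of the 10 genes were called lower than in cytoplasm, against 39.9% of all genes called and 19.5% called lower, and the medians were -1.45 and -0.08. Pfkl was at 41.2, 42.5 and 42.5 FPKM in nucleoplasm and at 140, 129 and 130 FPKM in cytoplasm, a log2 difference of -1.65 (SE 0.07, limma adjusted p = 4.52e-10). Slc2a1 was higher in nucleoplasm, at 86.1, 87.0 and 82.8 FPKM, by 0.86 on the log2 scale (SE 0.06, limma adjusted p = 3.56e-08), and Hk2 by 0.66 (SE 0.09, limma adjusted p = 2.18e-05), both short of 2-fold. With one sum per library the medians were -0.19 and 0.98 and Pgk1 turned to 0.09. After the length and GC correction the medians were -0.97 and -0.01. Between the nuclear fractions 2 genes, Aldoa and Pgk1, were called lower in chromatin than in nucleoplasm, against 34.7% of all genes called and 17.3% called lower; with one sum per library 0 were called. Against total RNA, 2 genes, Aldoa at 1.17 and Gapdh at 1.36 on the log2 scale, were called higher in cytoplasm and 0 lower, against 35.4% of all genes called either way. The medians of cytoplasm against total RNA were 0.68 for the 10 genes and 0.11 for all genes. After the length and GC correction they were 0.01 and -0.02.

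In EpiLC 7 of the 10 genes were called lower in chromatin than in cytoplasm, against 57.6% of 12834 genes called and 28.4% called lower, with medians of -2.26 and 0.00. With one sum per library the medians were -0.42 and 1.69, and Slc2a1, Hk2 and Gpi1 turned positive. Ldha had the widest gap, at 183, 192 and 209 FPKM in chromatin against 1676, 1609 and 1413 FPKM in cytoplasm, a log2 difference of -3.00 (SE 0.09, limma adjusted p = 6.85e-11). Gpi1 was not called, at -0.87 (SE 0.10, limma adjusted p = 2.26e-06), and Hk2 was at -0.50 (SE 0.15, limma adjusted p = 0.00938). Slc2a1 was at -0.45 (SE 0.27, limma adjusted p = 0.134) and overlapping libraries. Without EpiLC chromatin replicate 3 the difference of Slc2a1 was -0.85 (limma adjusted p = 0.00034).

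Nucleoplasm was nearer to cytoplasm in EpiLC. There 0 of the 10 genes were called lower than in cytoplasm, although 8 had an adjusted p under 0.05 and lay below 0, as did 43.4% of all genes, and 1 was called higher, Slc2a1, against 39.2% of all genes called, 19.1% lower and 20.1% higher. The medians were -0.57 for the 10 genes and -0.15 for all genes, and 0.46 and 0.71 with one sum per library, where the 8 genes with negative differences turned positive. After the length and GC correction the medians were -0.15 for the 10 genes and 0.0 for all genes. Pfkl was at 167, 157 and 176 FPKM in nucleoplasm and at 237, 261 and 224 FPKM in cytoplasm, -0.53 on the log2 scale (SE 0.08, limma adjusted p = 8.10e-05). Slc2a1 was at 414, 432 and 284 FPKM in nucleoplasm and at 185, 199 and 163 FPKM in cytoplasm, with no overlap and a log2 difference of 1.02 (SE 0.27, limma adjusted p = 0.00402). This single call rests at the threshold: the value was 0.94 without nucleoplasm replicate 1, 0.91 without nucleoplasm replicate 2 and 0.95 without cytoplasm replicate 3. Hk2 was at 0.68 (SE 0.15, limma adjusted p = 0.00139).

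Between the nuclear fractions of EpiLC, 9 of the 10 genes were called lower in chromatin than in nucleoplasm, against 32.7% of all genes called and 16.7% called lower, and the medians were -1.61 and -0.07. With one sum per library 3 were called. Pgk1 was at 206, 200 and 215 FPKM in chromatin and at 1035, 980 and 1030 FPKM in nucleoplasm, the widest gap at -2.29 (SE 0.08, limma adjusted p = 1.29e-09). Gpi1 was the exception, at -0.46 (SE 0.10, limma adjusted p = 0.000937), and turned to 0.34 with one sum per library. Hk2, called at -1.18, was at -0.95 without chromatin replicate 3. Of 14 other glycolysis genes 9 were called lower and 1 higher, with a median of -1.41. Of 20 genes of the tricarboxylic acid cycle 13 were called lower and 0 higher, with a median of -1.24. The share of mitochondrially encoded RNA also differed between these fractions, 2.13% ± 1.80 of the FPKM sum in chromatin and 4.84% ± 1.61 in nucleoplasm, and its part was not tested. Against total RNA 4 genes were called higher in cytoplasm, Gapdh at 1.30, Aldoa at 1.25, Eno1 at 1.11 and Pkm at 1.09 on the log2 scale, against 30.3% called and 12.7% called higher; with one sum per library, or after a correction for transcript length and GC content, 0 were called.

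**Figure D4:**
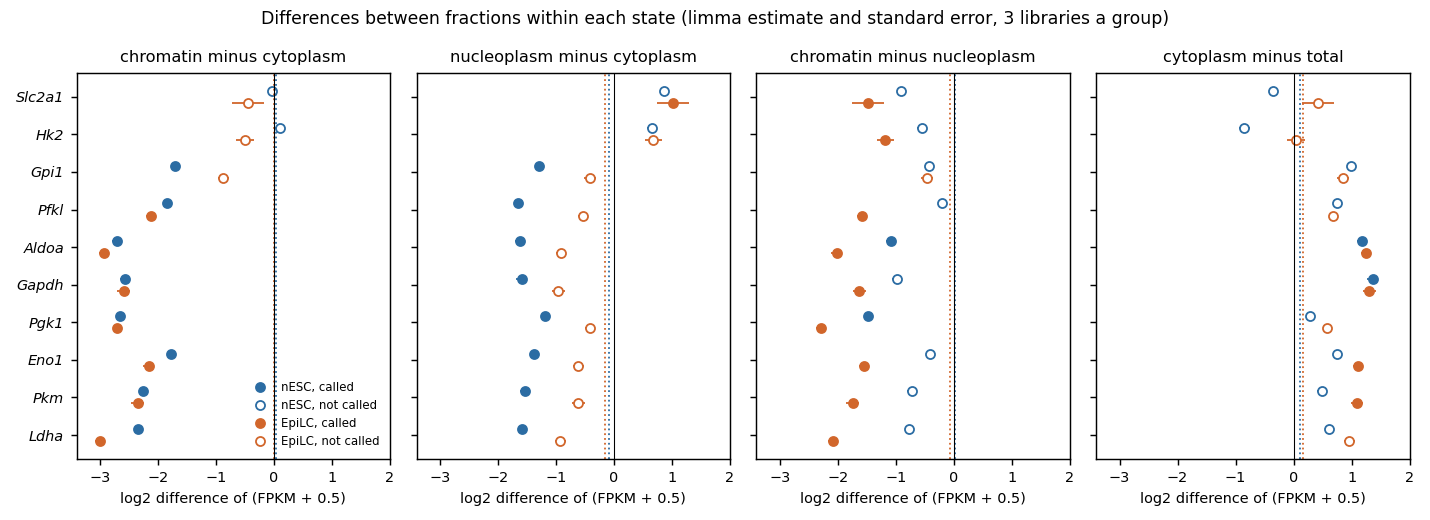
Log2 difference of FPKM + 0.5 between fractions for each glycolysis gene within nESC (blue) and EpiLC (orange), as limma estimates with standard errors from 3 libraries a group; filled points are called and dotted lines are the medians of all genes. Slc2a1 and Hk2 lie right of the other 8 genes in the panels against cytoplasm, and in nucleoplasm minus cytoplasm the orange points of the other 8 are nearer to 0 than the blue ones.

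Whether the fractions differed between the states was tested as an interaction, with each library centred on its median. For nucleoplasm against cytoplasm the interaction, EpiLC minus nESC, was positive: nucleoplasm stood higher relative to cytoplasm in EpiLC than in nESC. The median over the 10 genes was 0.80 on the log2 scale, against 0.06 over all genes. One sum per library gave 0.79 against 0.07, which is no separate check because the centring nearly cancels such a scaling. After the length and GC correction the medians were 0.81 and 0.04. In the fit as specified all 10 were above 0, as were 55.1% of all genes, and 8 had an adjusted p under 0.05 in that direction, against 15.9% of all genes. With the 2-fold limit 1 was called in the fit as specified, Pfkl, at 1.18 (SE 0.10, limma adjusted p = 2.30e-05), against 2.63% of all genes. The next were Pkm at 0.99 (SE 0.11, limma adjusted p = 0.000174) and Gpi1 at 0.94 (SE 0.11, limma adjusted p = 0.000166). The exceptions were Slc2a1 at 0.23 (SE 0.20, limma adjusted p = 0.436) and Hk2 at 0.09 (SE 0.09, limma adjusted p = 0.508), whose RNA was already higher in nucleoplasm than in cytoplasm in nESC. Of the 8 mitochondrially encoded genes 4 were called higher in the same interaction, and their part was not tested. Of 20 genes of the tricarboxylic acid cycle 18 were above 0 in it, with a median of 0.27, and 10 had a limma adjusted p under 0.05. Of 14 other glycolysis genes 10 were above 0, with a median of 0.20, and 6 had such a p.

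For chromatin against cytoplasm 0 of the 10 genes were called in the interaction, against 8.92% of all genes. By limma 2 had an adjusted p under 0.05, as did 20.4% of all genes, and no other member had an unadjusted p under 0.05. Gpi1 was nearer to cytoplasm in EpiLC chromatin, by 0.93 (SE 0.17, adjusted p = 0.00264), and Ldha was further below it, by -0.55 (SE 0.17, adjusted p = 0.0359). Slc2a1 was at -0.31 (SE 0.36, limma adjusted p = 0.579), and without EpiLC chromatin replicate 3 at -0.72 (adjusted p = 0.00888). Over the 24 libraries Slc2a1 and Hk2 also ran least like the rest. Among 8205 genes the 2 whose log2 values correlated best with Slc2a1 were Epcam (Pearson's r = 0.966) and H2-D1 (r = 0.962), and with Hk2 Xrcc5 (r = 0.943) and Cyfip1 (r = 0.928). With the mean of the 10 genes they were Eno1b (r = 0.998), Abcf2 (r = 0.991), Kars (r = 0.988), Gart (r = 0.988) and Cdc20 (r = 0.987). Eno1b is the near-identical copy of the member Eno1, with which it could share fragments, so its likeness is not independent of the members. These correlations are over 24 libraries that share 8 group means, and are given as descriptions.

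The other genes of the pathway were taken from lists by function. Their counts in total RNA stand against the 23.7% of all genes that were apart there, and a share near it is not a result about a list. Of 21 further glycolysis enzymes and isozymes 14 were tested; in total RNA 0 were apart and higher in EpiLC, and 3 were lower, Pfkp at -2.65 on the log2 scale, Ldhb at -1.96 and Hk1 at -1.55. Pfkp went from 219 ± 10.5 to 34.6 ± 2.16 FPKM and Hk1 from 25.3 ± 1.53 to 8.34 ± 0.329 FPKM (SD, n = 3). In nucleoplasm 1 was higher, Tpi1, the triose phosphate isomerase, at 1.16, and 3 were lower, Pfkp at -1.51, Eno2 at -1.06 and Ldhb at -1.02, with a median of -0.16 against 0.12 for all genes. Of 16 glucose and lactate transporters and their chaperones 7 were tested; 2 were higher and 1 lower in total RNA. Emb, which encodes embigin, a chaperone of monocarboxylate carriers, was at 6.95 ± 0.610 and 190 ± 1.71 FPKM. Slc16a3 was at 37.8 ± 0.749 and 224 ± 16.4 FPKM, and Slc2a3 was the lower one at -3.59.

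Regulators of the committed step and the fate of pyruvate also differed. Pfkfb3, which makes the activator fructose 2,6-bisphosphate, was higher in EpiLC total RNA by 1.57 on the log2 scale, at 8.32 ± 0.887 against 2.46 ± 0.294 FPKM. Tigar, which breaks it down, was lower, with 46.7 ± 1.57 FPKM in nESC and 9.65 ± 0.404 FPKM in EpiLC. Pfkfb2 was lower by -1.29 on that scale; of 5 such genes tested 1 was higher and 2 were lower. Among 11 tested genes of pyruvate entry into mitochondria 0 were higher and 5 lower in total RNA, among them both subunits of the mitochondrial pyruvate carrier, Mpc1 and Mpc2. Mpc1 was at 47.4 ± 4.13 and 8.58 ± 0.198 FPKM and Mpc2 at 30.1 ± 3.02 and 7.96 ± 0.434 FPKM. Pdha1 at -1.15 and Pdhb at -1.14 encode subunits of pyruvate dehydrogenase. Pdk1, the kinase that inhibits that enzyme, was not apart in total RNA, at 47.5 ± 1.68 and 76.1 ± 1.58 FPKM with a log2 ratio of 0.67. It was higher in cytoplasm by 2.47, at 27.7 ± 0.990 and 155 ± 29.3 FPKM. In cytoplasm 2 of the 11 genes were apart and higher and 2 lower, against 18.3% of all genes. Pdha1 at -0.59 and Pdhb at -0.51 were not apart there. Pdp1, of the same list, was apart and higher in nucleoplasm by 1.52, as was Pdk1 by 1.97.

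Of 20 genes of the tricarboxylic acid cycle 0 were higher and 4 lower in total RNA (Idh2 at -2.11, Sdhc at -1.24, Idh1 at -1.15 and Sdhb at -1.07), a share near the 23.7% of all genes, and their median was -0.63 against -0.01 for all genes. Of 8 pentose phosphate genes 1 was lower in total RNA, H6pd at -1.26, while G6pdx, the first enzyme of the cytosolic branch, was higher in nucleoplasm by 1.83. Of 18 tested genes of the hypoxia-inducible factor pathway 3 were higher and 4 lower in total RNA. Ddit4 was higher at 2.28 and P4ha2 at 1.58, and Kdm3a was lower at -1.59. Vhl, a regulator in that pathway and not a target, was lower at -1.38. Genes of this list thus stood on both sides, and a part of the factors was not tested. Of 5 tested genes of the MYC family 2 were higher in total RNA, Mlxip at 0.570 and 2.95 FPKM and Mlxipl at 0.409 and 2.47 FPKM, both low and named after their values were seen. Mycn was not apart in total RNA, with a log2 ratio of 0.76, and was higher by 1.75 in cytoplasm, at 36.3 ± 1.13 and 124 ± 16.2 FPKM. Of the 4 tested gluconeogenesis genes 1 was higher in total RNA and 0 lower.

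**Figure D5:**
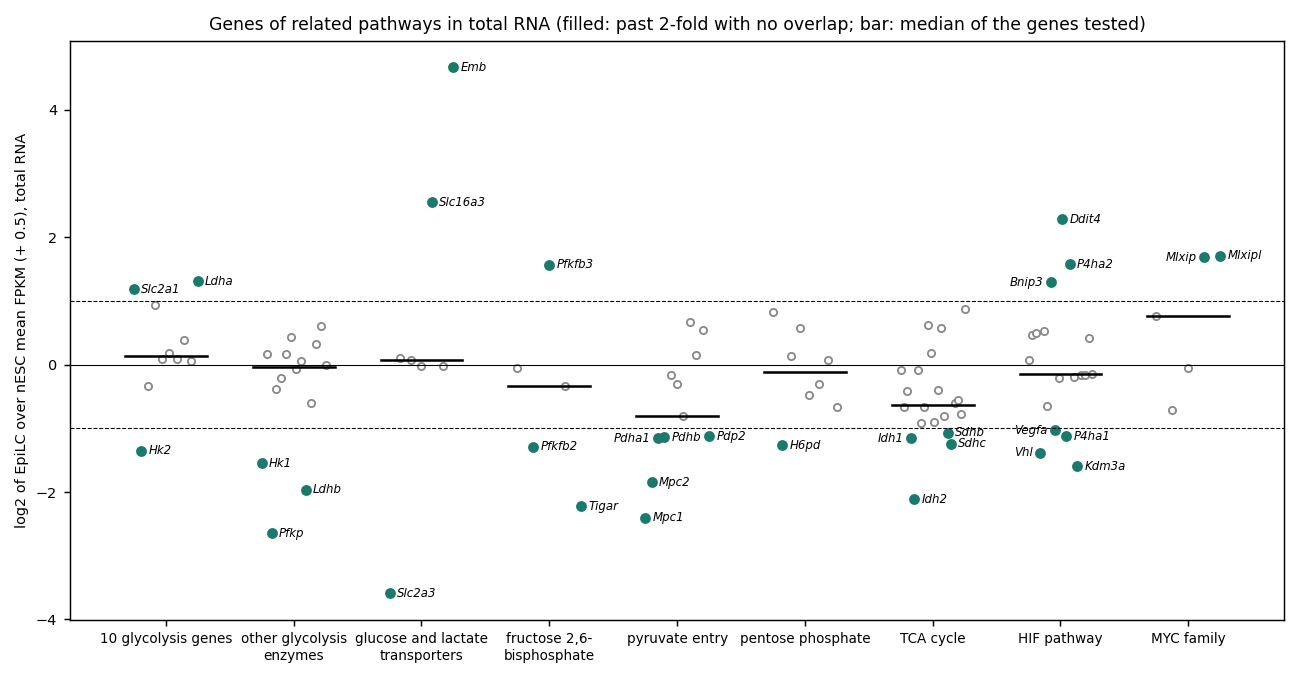
Log2 of mean FPKM in EpiLC over nESC in total RNA (each mean plus 0.5) for the tested genes of each list; filled points are past 2-fold with no overlap of the 3 libraries a state, and bars are medians. The glycolysis genes, with a median of 0.14, have points on both sides of the dashed 2-fold lines, and all 4 filled points of the tricarboxylic acid cycle lie below 0.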

How the data were processed

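Fractions of nESC and EpiLC were prepared and sequenced with the TruSeq Stranded Total RNA kit after Ribo-zero gold depletion and TRIzol extraction, per the labels' protocols. The authors deposited FPKM per gene. The submitters' processing notes name TopHat2, Cuffnorm and the build mm10, also given as GRCm38. Not given in the sources used here are the tool versions, the annotation, the library normalization and whether counting used strand. Each state has its own table of 12 libraries, normalized on its own. Grouping followed the labels, and no library was left out. Of 29759 genes 29586 were matched to symbols by Ensembl ID in GENCODE M21, and 173 were not.

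Within a state, 4 pairs of library kinds were compared with limma 3.58.1 in R 4.3.3 on log2(FPKM + 0.5), as two-sided moderated tests with a trended prior, for genes whose mean was 1 FPKM or more, with Benjamini-Hochberg adjustment over all genes tested; folds of low genes are understated on this scale. Calls needed an adjusted p under 0.05 and a 2-fold difference. The interaction used libraries centred on their medians. The states were compared only as levels. On simulated data at least 98% of 4-fold and 64% of 2-fold changes had an adjusted p under 0.05 and the right sign. The 2-fold limit was not applied there, so these are not the shares that would be called. Depth was inferred from the steps between low values and covers counting error only. Copies were blastn matches of at least 95% identity over 500 bases.

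All 10 members are named. From every other list, the text names up to 4 called genes per comparison by the largest difference, with a higher mean of at least 5 FPKM; markers, copies, isozyme families and Pfkm were added after their values were seen, as were Slc2a3 and Slc16a1 in shares. Genes most alike were the top 5 for the members' mean and the top 2 for a member, of which those of Slc2a1 and Hk2 are given. The members and lists were chosen with earlier results of these data known. Alternatives were pseudocounts of 0.1 and 1, filters at 0 and 5 FPKM, other scalings, no trend, a replicate block, fits of only the kinds compared, isolated zeros as missing, a limit of 1.5-fold and each library left out.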

Additional observations from a re-analysis of the deposited data

Results flagged for a closer look

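The nucleoplasm against cytoplasm difference of Pfkl differed between the states past the 2-fold limit in a test of the difference itself. The interaction, EpiLC minus nESC, was 1.18 on the log2 scale (SE 0.10, limma adjusted p = 2.30e-05), from -1.65 in nESC to -0.53 in EpiLC before centring, and 2.63% of all genes were called in it. Pkm, at 0.99, lay just inside the limit. After the length and GC correction 2 of the 10 genes were called, with no filter 3, and 2 without any one of nESC cytoplasm replicate 2, EpiLC nucleoplasm replicate 2 and EpiLC cytoplasm replicate 2.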

How the results depend on the processing

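Of 2220 values recomputed under the alternatives 2074 kept their direction and side of the threshold, 48 fell below it, 29 passed it, 13 moved and 56 changed sign; the causes were not tested. With every library scaled to one sum the genes called either way in nESC were 2 in chromatin against cytoplasm, 2 in nucleoplasm against cytoplasm and 0 in chromatin against nucleoplasm. In EpiLC they were 4, 2 and 3, with 0 in cytoplasm against total RNA. Some of these calls go against the direction described above. In chromatin against cytoplasm Slc2a1 was called higher in chromatin in nESC, at 1.91. In EpiLC Slc2a1 at 1.38 and Hk2 at 1.31 were called higher in chromatin. The directions of the other calls are not given here, so the counts do not say how many lower calls remain. After the length and GC correction nESC chromatin against nucleoplasm and nESC cytoplasm against total RNA each had 1, EpiLC cytoplasm against total RNA 0 and the interaction of nucleoplasm against cytoplasm 2. Centring gave 3 in EpiLC nucleoplasm against cytoplasm, no filter gave 3 in the interaction, and a 1.5-fold limit put 5 genes apart in cytoplasm.

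Leaving out libraries gave 0 to 1 calls in EpiLC nucleoplasm against cytoplasm (0 without nucleoplasm replicate 1 or 2), 1 to 2 in the interaction of nucleoplasm against cytoplasm (2 without nESC cytoplasm replicate 2, EpiLC nucleoplasm replicate 2 or EpiLC cytoplasm replicate 2) and 1 to 3 genes apart in chromatin (1 without EpiLC replicate 3).

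Signs changed as follows, as log2 differences. With one sum, in nESC chromatin against cytoplasm Slc2a1 was 1.91, Gpi1 0.26, Pfkl 0.11 and Eno1 0.19, in nucleoplasm against cytoplasm Pgk1 was 0.09, in chromatin against nucleoplasm Hk2 was 0.15, Gpi1 0.28, Pfkl 0.49 and Eno1 0.30, and in cytoplasm against total RNA Pfkl was -0.21, Pgk1 -0.69, Eno1 -0.22, Pkm -0.49 and Ldha -0.35. In EpiLC chromatin against cytoplasm Slc2a1 was 1.38, Hk2 1.31 and Gpi1 0.97, in nucleoplasm against cytoplasm Gpi1 was 0.62, Pfkl 0.50, Aldoa 0.13, Gapdh 0.08, Pgk1 0.63, Eno1 0.42, Pkm 0.42 and Ldha 0.11, in chromatin against nucleoplasm Gpi1 was 0.34, and in cytoplasm against total RNA Slc2a1 was -0.57, Hk2 -0.95, Gpi1 -0.15, Pfkl -0.32, Pgk1 -0.42 and Ldha -0.04. After the length and GC correction, in nESC Slc2a1 was 0.66 in chromatin against cytoplasm, and Pgk1 was -0.02, Eno1 -0.06 and Pkm -0.35 in cytoplasm against total RNA. In EpiLC Slc2a1 was 0.25 in chromatin against cytoplasm, Pgk1 0.21 in nucleoplasm against cytoplasm, and Slc2a1 -0.17 and Hk2 -0.29 in cytoplasm against total RNA. Centring put Hk2 at -0.15 in nESC chromatin against cytoplasm. In the interaction of chromatin against cytoplasm, with values near 0, Gapdh was -0.04 and Pgk1 -0.06 with no filter, Gapdh -0.02 and Pgk1 -0.04 with no centring, Pgk1 -0.01 after the length and GC correction, Pkm 0.05 with a filter at 5 FPKM, and leaving out libraries gave -0.02 to 0.17 for Gapdh, -0.03 to 0.10 for Pgk1 and -0.07 to 0.06 for Pkm.

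A replicate block changed no count, for example 8 called in nESC and 7 in EpiLC chromatin against cytoplasm; same-numbered libraries deviated together by r = -0.219 to 0.177, so the numbers were not shown to pair them. By merged exon length the counting error was at most 2.2% for the 10 genes, which understates it where the main transcript is shorter. Genes of a few FPKM named beside the 10, such as Pfkfb3, Mlxip and Sox17, rest on far fewer fragments.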

Other observations

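Further values of genes in the factor lists are given here, chosen after they were seen. Those of Myc, Hif1a, Bnip3 and Vegfa in total RNA and of Vegfa in cytoplasm lie outside the naming rule. Myc was at 0.337 ± 0.131 FPKM in nESC total RNA and 6.53 ± 0.799 FPKM in EpiLC (SD, n = 3), and it was not tested because its mean in nESC was under 1 FPKM. Hif1a was at 40.3 ± 0.327 and 42.5 ± 1.68 FPKM in total RNA and was not apart, with a log2 ratio of 0.08. Bnip3, a mitophagy receptor listed as a target of hypoxia-inducible factors, was at 49.0 ± 2.57 and 121 ± 2.87 FPKM in total RNA. Vegfa, listed as a target too, went the opposite way in total RNA, at 11.2 and 5.26 FPKM with a log2 ratio of -1.03. In nucleoplasm it was at 40.8 ± 0.272 and 7.56 ± 0.999 FPKM. In cytoplasm its log2 ratio was -0.32 and its libraries overlapped.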
